A study of Mus musculus with 161 samples.

Results

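Del_576-614 is a line of mouse embryonic stem cells (EN142.1) whose CTCF cDNA lacks a short stretch of the C-terminal domain, named here after the residues in 2 of its 3 5C labels (the study starts the deletion 1 residue later). Its members are the 3 chromosome-conformation capture carbon copy (5C) libraries of that line after 4 days of auxin and doxycycline (dox), out of 91 5C libraries in the series. They were compared with the 14 libraries of line EN133.10, which carries full-length CTCF and received the same treatment. All of these cells descend from the male line E14Tg2a. In each, endogenous CTCF is fused to an auxin-inducible degron and eGFP, Tir1 is integrated at random, and a FLAG- and mRuby2-tagged CTCF cDNA under a dox-inducible promoter sits at the Tigre locus with the rtTA3G activator. Auxin at 500 μM removes endogenous CTCF, and dox at 1 μg/ml switches on the cDNA. Each line is 1 clone, so a difference between the deletion and full-length CTCF and a difference between 2 clones cannot be told apart. The study describes lower transgene expression and lower binding to DNA in Del_576-614, and neither was analysed here, so the deletion and the amount of protein cannot be told apart either.

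The label of Del_576-614 replicate 1 names another deletion, Del_615-736, whereas those of replicates 2 and 3 name Del_576-614. Del_615-736 is also the deletion that the labels of all 4 ChIP-seq samples of line EN142.1 name, so the labels alone do not settle which deletion the line carries. The 3 libraries were grouped by cell line, with the deletion taken from the study, and each value is given by library because replicate 1 stood apart from the other two in several measurements.

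CTCF binds DNA through an array of zinc fingers at a motif that has a direction. Cohesin enlarges chromatin loops and halts at bound CTCF, and most loops join sites whose motifs point towards each other. Boundaries of topologically associating domains (TADs) lie where such halting limits contacts between neighbouring stretches, a property called insulation. The deleted stretch was studied because it overlaps a region that binds the cohesin subunit SA in vitro and an RNA-binding region. The study reports that CTCF with this deletion still co-immunoprecipitated with a cohesin subunit. It describes the rescue of insulation as what the transgene's expression would predict, which was not tested here.

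The 5C assay covered chrX:98831148-103431148 (mm9), around the X-inactivation centre with Xist and Tsix, divided here into 230 bins of 20 kb. The 3 Del_576-614 libraries held 15215266, 16235216 and 19664602 counts, and 12 full-length libraries with complete counts held 5262254 to 23096139. Across the binned maps, the correlation between 2 Del_576-614 libraries was 0.890 to 0.909, between 2 full-length libraries 0.791 to 0.924, and between 1 of each 0.802 to 0.919. Nothing in the labels says whether libraries of 1 line came from separate cultures, so p-values measure the spread between these libraries, which may be technical.

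The study lists 6 boundaries in the region. Boundary 1 (chrX:99151148-99171148) lies within Nhsl2. No annotated gene overlaps boundary 2 (chrX:99411148-99431148), between Rps4x, which encodes a ribosomal protein, and Cited1, a transcriptional co-regulator. Boundary 3 (chrX:100451148-100471148) lies in 4930519F16Rik. Boundary 4 (chrX:100671148-100691148) holds parts of Xist, the RNA that coats the inactive X, and of its antisense partner Tsix. Boundary 5 (chrX:101211148-101231148) contains no annotated gene and lies between Rlim, which encodes an E3 ubiquitin ligase, and C77370. Boundary 6 (chrX:103211148-103231148) spans Cox7b, a subunit of cytochrome c oxidase, and Atp7a, a copper transporter.

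The deposited FLAG–CTCF peaks, called in full-length cells, place 11 binding sites in 5 of these 6 bins. Below, 1 peak of 200 bp is shown for each of the 5 bins, and 2 for boundary 2, where the 3 libraries differed most from full-length CTCF. Letters were read from the plus strand of mm9, 5′ to 3′, and capitals mark the match to the CTCF core consensus of 14 letters with at most 2 mismatches on either strand.

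Boundary 1, chrX:99170321-99170520, Nhsl2 intron: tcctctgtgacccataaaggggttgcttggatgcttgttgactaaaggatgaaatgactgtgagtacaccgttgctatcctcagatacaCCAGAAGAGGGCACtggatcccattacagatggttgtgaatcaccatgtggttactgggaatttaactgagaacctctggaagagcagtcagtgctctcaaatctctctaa
Boundary 2, chrX:99414572-99414771, intergenic: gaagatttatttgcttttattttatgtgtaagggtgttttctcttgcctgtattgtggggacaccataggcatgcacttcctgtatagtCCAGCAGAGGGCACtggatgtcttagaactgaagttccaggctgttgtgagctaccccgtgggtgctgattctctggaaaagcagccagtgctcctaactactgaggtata
Boundary 2, chrX:99415083-99415282, intergenic: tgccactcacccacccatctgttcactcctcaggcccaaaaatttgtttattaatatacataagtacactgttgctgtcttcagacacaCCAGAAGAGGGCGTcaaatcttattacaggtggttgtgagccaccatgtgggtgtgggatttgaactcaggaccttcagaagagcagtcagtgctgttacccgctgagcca
Boundary 3, chrX:100455304-100455503, 4930519F16Rik intron: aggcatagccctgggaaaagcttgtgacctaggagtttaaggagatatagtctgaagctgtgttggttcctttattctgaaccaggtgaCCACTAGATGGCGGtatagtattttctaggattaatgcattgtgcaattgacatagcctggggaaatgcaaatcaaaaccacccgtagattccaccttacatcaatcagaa
Boundary 4, chrX:100679482-100679681, Tsix exon: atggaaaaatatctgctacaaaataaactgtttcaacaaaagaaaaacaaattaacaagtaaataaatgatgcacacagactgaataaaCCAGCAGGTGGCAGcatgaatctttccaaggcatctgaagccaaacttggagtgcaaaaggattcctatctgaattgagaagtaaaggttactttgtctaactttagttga
Boundary 6, chrX:103222346-103222545, intergenic: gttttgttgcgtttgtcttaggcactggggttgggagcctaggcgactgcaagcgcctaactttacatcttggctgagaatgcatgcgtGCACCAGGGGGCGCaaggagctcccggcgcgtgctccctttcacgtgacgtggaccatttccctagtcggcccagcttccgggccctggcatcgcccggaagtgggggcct

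A match was found in 9 of the 11 peaks, and all 9 were on the plus strand. Over the region, matches in 60 of 78 peaks were split into 30 on each strand. For reference, 77.9% of 1128 peaks on chromosome X held a match, against 4.43% of windows of the same length moved by 2000 bp. A match describes the letters of a window and does not show that Del_576-614 binds there. For boundary 5, which holds no peak, the closest one was at chrX:101187133-101187332 and its match was on the minus strand.

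Insulation at the 6 boundaries was compared first. The score compares contacts in a 100-kb square across a bin with the average over all bins, on a minus log2 scale, so a higher score means fewer contacts across. A negative score, as at boundary 1, means more contacts across than average. Boundary bins were used as the study lists them. In full-length cells the bin directly upstream had a higher mean at boundaries 1 (0.295 against -0.184), 2 (0.821 against 0.659) and 4 (1.69 against 1.38). At boundary 3 it was lower (0.298 against 0.382). At boundary 5 every full-length library scored higher in the upstream bin (0.82 to 1.06) than in the listed bin (0.629 to 0.794). At boundary 6 the 2 bins overlapped (0.524 to 0.769 upstream, 0.602 to 0.914 listed). The listed bins may therefore not be the most insulated ones. The mean over the 6 boundaries was 0.458, 0.594 and 0.565 in Del_576-614. In full-length cells it ranged from 0.542 through a median of 0.603 to 0.708. The 3 libraries all lay under the full-length median, but only replicate 1 lay under every full-length library. The means were 0.539 ± 0.072 (SD, n = 3) and 0.607 ± 0.040 (SD, n = 14), a difference of -0.069 that did not pass the threshold of 0.05 (two-sided exact permutation test, p = 0.0529, smallest possible p 0.00294). Without replicate 1, the library whose label names the other deletion, the mean was 0.579 and the difference shrank to -0.028 (exact permutation p = 0.3). Full-length replicate 1, from the same first run of library numbers, stayed in that comparison and was the lowest full-length library (0.542). The difference was -0.085 within the first run (1 library of each line) and -0.055 within the second (2 and 3 libraries). Whether the low value of replicate 1 goes with its label or its run was not tested.

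**Figure D1:**
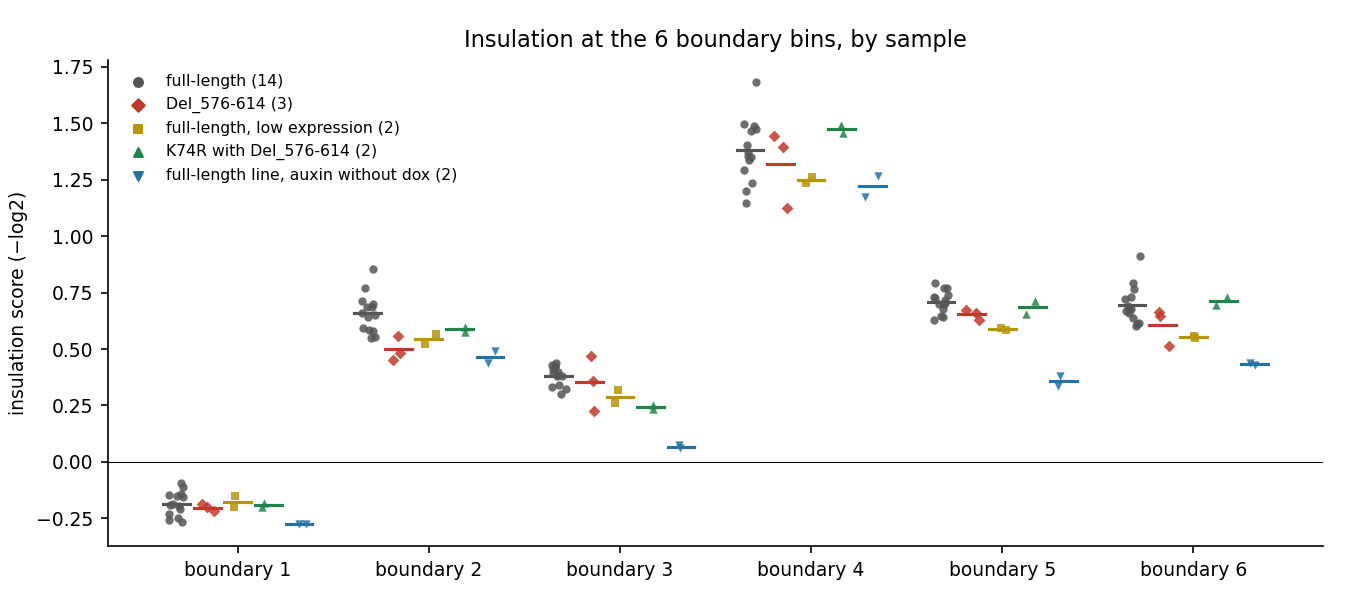
Insulation score (minus log2, vertical axis) at each of the 6 boundaries, for full-length CTCF (n = 14), Del_576-614 (n = 3) and, with 2 libraries each, the low-expression full-length line, a line with K74R and Del_576-614, and full-length cells with auxin alone, where points are libraries and horizontal lines means. At boundary 2, 2 of the 3 Del_576-614 libraries lie below all full-length libraries, and at each other boundary at most 1 does.

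Boundary 2 had the largest shift. Its score was 0.454, 0.559 and 0.481 in the 3 Del_576-614 libraries. In full-length cells it ran from 0.550 through a median of 0.657 to 0.855. The labels replicate 3 and replicate 4 are each used by 2 full-length libraries. The later library of each label had the highest scores, 0.855 and 0.769. Del_576-614 replicates 1 and 3 were below all 14 full-length libraries, and Del_576-614 replicate 2 overlapped the low end of full-length CTCF. The difference in means was -0.161 (0.498 ± 0.055, n = 3, against 0.659 ± 0.086, n = 14, SD), with p = 0.00882 by exact permutation and an adjusted p of 0.0529 over the 6 boundaries. The shift was -0.102 within the first run of library numbers (1 library of each line) and -0.094 within the second (2 and 3 libraries). Calls at this boundary depended on the setting. Its adjusted p by the exact permutation test was 0.0353 when the bin directly upstream was scored instead, 0.0353 with median binning, 0.0396 from raw counts, and 0.0429 without either full-length replicate 1 or full-length replicate 8, and it was above 0.05 under the other settings run.

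At boundary 5, between Rlim and C77370, the score was 0.631, 0.661 and 0.672. Full-length libraries scored 0.629 to 0.794, with a median of 0.709. All 3 Del_576-614 libraries were in the low part of the full-length range without leaving it (difference -0.055, exact permutation p = 0.0765, adjusted p = 0.194). From raw counts, with 12 full-length libraries, this boundary passed the test (difference -0.102, adjusted p = 0.0264 by exact permutation).

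Boundary 6, at Cox7b and Atp7a, scored 0.512, 0.647 and 0.665. The full-length scores were 0.602 to 0.914, with a median of 0.677. Replicate 1 was below all full-length libraries and the other two overlapped them (difference -0.089, exact permutation p = 0.0971, adjusted p = 0.194), and without replicate 1 the difference was -0.041.

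At boundary 4, the strongest of the region, the score was 1.12, 1.44 and 1.40. Full-length scores spanned 1.15 to 1.68, with a median of 1.36. Replicate 1 was again lowest, whereas replicates 2 and 3 were above the full-length median (difference -0.059, exact permutation p = 0.521, adjusted p = 0.574). At boundary 3 the Del_576-614 libraries scored 0.227, 0.471 and 0.36. One of them was below and another above the whole full-length range of 0.30 to 0.437 (difference -0.030, exact permutation p = 0.438, adjusted p = 0.574). Boundary 1 scored -0.201, -0.220 and -0.188, within the full-length range of -0.265 to -0.093 (difference -0.018, exact permutation p = 0.574, adjusted p = 0.574). Thus 0 of 6 boundaries passed at an adjusted p of 0.05 by the exact permutation test and 1 of 6 had an unadjusted p under 0.05, while the mean was lower in Del_576-614 at all 6. Without replicate 1 it was lower at boundaries 1, 2, 5 and 6 and higher at boundaries 3 (0.033) and 4 (0.040). Within the second run of library numbers, boundary 4 was lower (-0.109) and only boundary 3 was higher (0.028).

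Intervals from a limma fit of this and the related lines bound these differences. The 95% interval, not adjusted for the number of bins, was -0.257 to -0.065 at boundary 2 and -0.120 to 0.009 at boundary 5. In the same fit boundary 2 had a limma adjusted p of 0.081, so it did not pass. At boundary 4, where the spread was widest, the interval was -0.223 to 0.105. It was -0.082 to 0.046 at boundary 1, -0.103 to 0.044 at boundary 3 and -0.187 to 0.009 at boundary 6.

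The whole profile was then compared, over 193 bins with a score. Its shape was shared: the mean profiles had a correlation of 0.991 across bins, which are neighbours on 1 chromosome and share windows, and a slope of 0.97. No bin passed at an adjusted p of 0.05 (limma, 0% of 193 bins). With p unadjusted, 7.25% of bins were lower and 9.33% higher in Del_576-614 at 0.05, which is 14 and 18 bins.

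**Figure D2:**
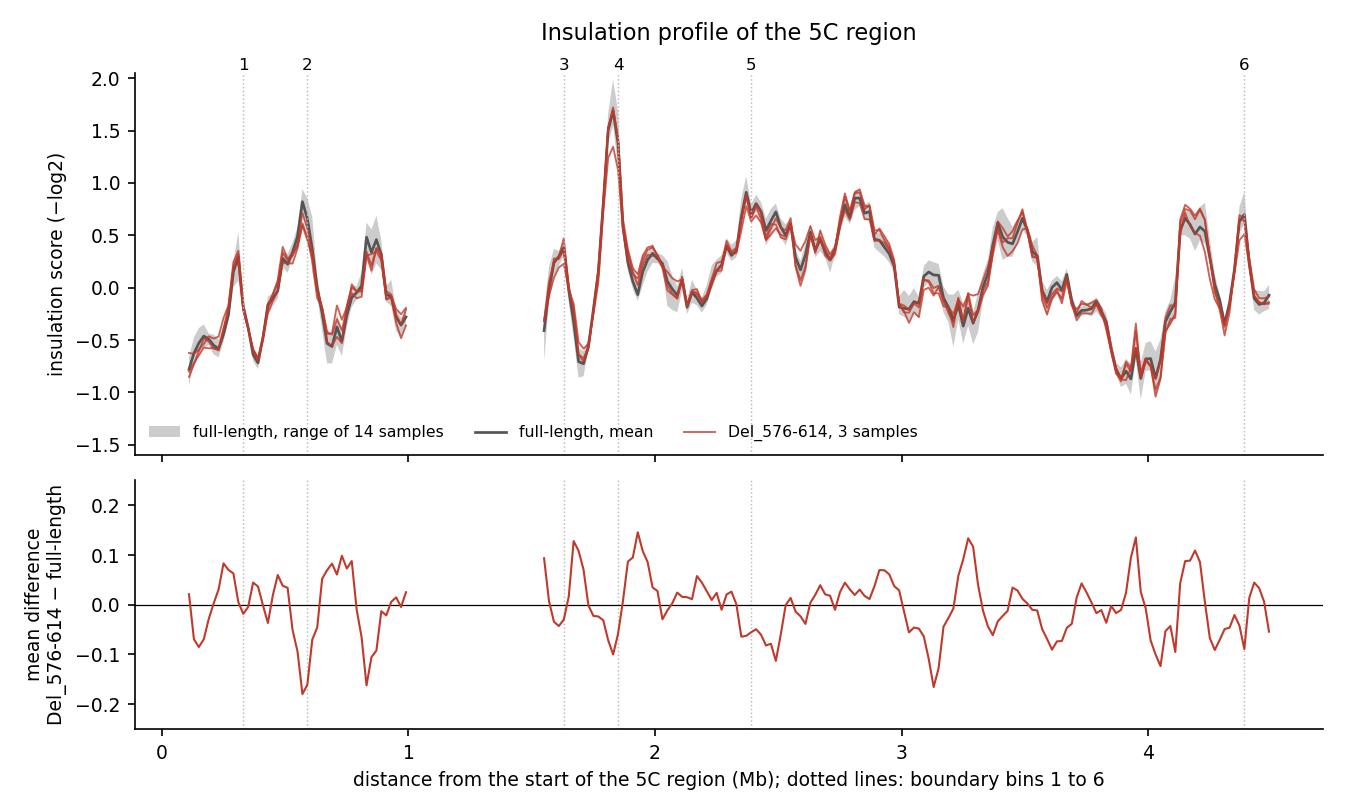
Insulation score (minus log2) along the 5C region (distance from its start in Mb): the grey band is the range of 14 full-length libraries, the grey line their mean and the red lines the 3 Del_576-614 libraries, with the difference of the means in the lower panel and boundaries 1 to 6 as dotted lines. The red lines follow the full-length profile, and the lower panel stays between -0.180 and 0.146.

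The 5 bins with the smallest p are named here. The bin before boundary 2 (chrX:99391148-99411148), with 1 peak and Gm14859, scored 0.595, 0.713 and 0.615, whereas full-length libraries scored 0.706 to 0.940 with a median of 0.812. Replicates 1 and 3 were below all full-length libraries (difference -0.180, SE 0.047, limma adjusted p = 0.0595). This bin and boundary 2 itself (-0.161, limma adjusted p = 0.117) share most of their window.

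A second place with lower scores was inside the long stretch between boundaries 5 and 6, away from annotated genes. At chrX:101951148-101971148 the scores were -0.055, -0.076 and -0.004, and full-length libraries spanned -0.039 to 0.242 with a median of 0.126 (difference -0.166, limma adjusted p = 0.0595). The next bin (chrX:101971148-101991148), which holds 1 peak, differed by -0.128 (limma adjusted p = 0.117). Both are weakly insulated bins, with mean full-length scores of 0.121 and 0.118.

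One bin in the 5 was higher in Del_576-614. At chrX:100751148-100771148, with the microRNA genes Mir421 and Mir374 and the non-coding B230206F22Rik, scores were 0.023, 0.128 and 0.087, against -0.128 to 0.065 with a median of -0.078 in full-length cells (difference 0.146, limma adjusted p = 0.0595). It lies between boundaries 4 and 5. In a fit that also held the related lines, chosen after seeing the data, this bin, the bin before boundary 2 and the bin at chrX:101951148-101971148 each had an adjusted p of 0.0348 (limma).

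Complete separation of the libraries was rare. All 3 Del_576-614 scores were below all 14 full-length scores in 1 bin (0.518%) and above all in 1 bin (0.518%). These bins, named after their values were seen, were chrX:103091148-103111148 in Atrx, a chromatin remodeller gene (difference -0.091), and chrX:102091148-102111148 without a gene (difference 0.134).

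Bins with a FLAG–CTCF peak and bins without one moved differently in sign. Of 41 scored bins with a peak, 32 were lower in Del_576-614, with a median difference of -0.046. Of the scored bins without a peak, 65 were lower, with a median of 0.010. The unadjusted limma p was under 0.05 in 6 bins with a peak (14.6%), all lower. It was under 0.05 in 26 bins without a peak (17.1%), of which 8 were lower and 18 higher. The share over all scored bins was 16.6%, so bins with a peak did not pass more often than the rest. Over all 193 bins the median was -0.00057 and 97 were lower. Neighbouring bins share windows and peaks, so these counts are a description without a test.

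Contacts inside the 7 segments between boundaries were compared next, as log2 of mean observed over expected contact at the same distance. None passed at an adjusted p of 0.05 (exact permutation test), and 1 of 7 had an unadjusted p under 0.05. That was segment 2, from boundary 1 to boundary 2 (chrX:99171148-99411148, with Rgag4, Pin4, Ercc6l and Rps4x). Its values were 0.093, 0.018 and 0.033, and full-length libraries spanned 0.046 to 0.126 with a median of 0.105. Replicates 2 and 3 were below every full-length library, while replicate 1 was inside the range (difference -0.046, exact permutation p = 0.0471, adjusted p = 0.309).

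Segment 5, from boundary 4 to boundary 5 with Rlim, had 0.044, 0.111 and 0.125 against 0.075 to 0.205 (difference -0.051, exact permutation p = 0.0941, adjusted p = 0.309), and the difference was -0.026 without replicate 1. Segment 4, which holds Tsx, Chic1 and the homeobox gene Cdx4, had 0.311, 0.334 and 0.330 against 0.305 to 0.409 (difference -0.034, exact permutation p = 0.132, adjusted p = 0.309). In both, all 3 libraries were below the full-length median. The remaining segments differed by between -0.014 and 0.034, each overlapping the full-length range. Segment 6, the longest at 1980 kb, had 0.030, 0.048 and 0.055 against 0.020 to 0.090.

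**Figure D3:**
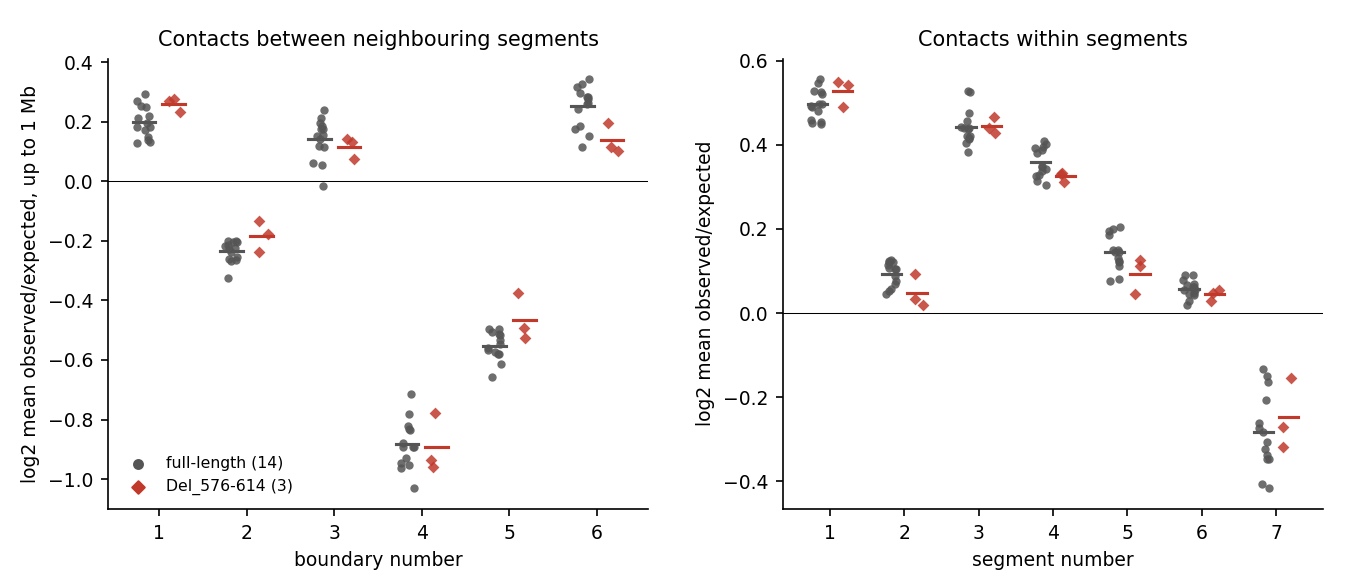
Log2 of mean observed over expected contact between neighbouring segments by boundary (left) and within the 7 segments (right), for full-length CTCF (n = 14) and Del_576-614 (n = 3), where points are libraries and horizontal lines means. Contacts across boundary 5 are higher in Del_576-614 and those across boundary 6 lower, each with 2 of 3 libraries outside the full-length range.

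Contacts between neighbouring segments, up to 1000 kb, moved in opposite directions at different boundaries. None passed at an adjusted p of 0.05 (exact permutation test), and 2 of 6 had an unadjusted p under 0.05. Across boundary 5 the values were -0.374, -0.494 and -0.526, and full-length libraries had -0.659 to -0.495 with a median of -0.553. Replicate 1 was above all full-length libraries, replicate 2 was just above the highest, and replicate 3 was above their median (difference 0.088, exact permutation p = 0.0412, adjusted p = 0.112). Without replicate 1 the difference was 0.043. The shift was 0.16 within the first run of library numbers and 0.086 within the second.

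Across boundary 2 the values were -0.134, -0.179 and -0.239, and full-length libraries had -0.324 to -0.199 with a median of -0.227. Replicates 1 and 2 were above the full-length range and replicate 3 was under its median (difference 0.052, exact permutation p = 0.0559, adjusted p = 0.112), and without replicate 1 the difference was 0.027. Boundary 1 had 0.276, 0.233 and 0.268 against 0.128 to 0.292, all above the full-length median of 0.190 (difference 0.061, exact permutation p = 0.0824, adjusted p = 0.124). More contact across a boundary is the counterpart of a lower insulation score, although over a longer distance.

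Boundary 6 went the other way. Contacts across it were 0.196, 0.114 and 0.100 in Del_576-614 and 0.116 to 0.343, with a median of 0.269, in full-length cells (difference -0.114, exact permutation p = 0.0294, adjusted p = 0.112). Replicates 2 and 3 were below all full-length libraries. Its insulation score was lower as well, so the short-range square and the contacts up to 1000 kb did not move as counterparts here. After auxin alone, which degrades endogenous CTCF without inducing the full-length cDNA, contacts across boundary 6 were also lower (mean -0.040, n = 2) than with dox (0.251, n = 14). Contacts across boundaries 3 and 4 differed by -0.025 and -0.008, well inside the full-length spread.

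The direction of contacts from each boundary bin was described as log2 of observed over expected contact after the bin over that before it, from 60 to 500 kb. The span was shorter before boundary 1 and after boundary 6, where the region ends. This measure was added after seeing the data and was not tested. At boundary 2 it was 1.61, 1.63 and 1.63, in the low part of the full-length range of 1.58 to 2.04 (median 1.84). At boundary 4 it was 0.78, 0.82 and 0.84, against 0.64 to 1.53 (median 1.06). The positive values at both bins mean that contacts went mostly towards higher coordinates. Of the other bins with a plus-strand match, those at boundaries 3 and 6 were also positive in every library. Boundary 1 was not positive in every full-length library. At boundary 1 the values were 0.025, 0.11 and 0.19 against -0.071 to 0.437 (median -0.013), at boundary 3 0.15, 0.20 and 0.41 against 0.054 to 0.485 (median 0.19), and at boundary 6 0.56, 0.50 and 0.60 against 0.448 to 0.806 (median 0.57). The mean was lower in Del_576-614 at boundaries 2, 4 and 6 (differences of -0.21, -0.30 and -0.035) and higher at boundaries 1 and 3 (0.059 and 0.034). At boundary 5, which has no peak, it was -0.43, -0.31 and -0.34 against -0.56 to -0.34 (median -0.46), and 2 of 3 libraries were above the full-length range.

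Contacts were also divided by distance, and no class passed the test. Contacts at 40 to 100 kb made up 23.8%, 26.5% and 26.4% of the total in Del_576-614, and 23.6% to 26.8% in full-length cells. Those beyond 2000 kb made up 5.02%, 3.98% and 3.87%, and in full-length cells 4.15% to 7.98% with a median of 4.73%. The highest full-length values, 7.98% and 6.86%, came from the later libraries labelled replicate 3 and replicate 4. The next highest was 5.17%, so these libraries raised the full-length mean. Del_576-614 replicates 2 and 3 were below all full-length libraries at this longest distance (difference -0.763 percentage points, exact permutation p = 0.121, adjusted p = 0.724). None of the 6 classes had an unadjusted p under 0.05 by the exact permutation test. Within the second run of library numbers the longest class differed by -0.509 percentage points and within the first by 0.002. Replicate 1 and the other two thus differed at both ends of the distance range, with 11.2% of contacts at 1000 to 2000 kb in replicate 1 and 9.76% and 9.71% in the others. Full-length replicate 1, of the same run as Del_576-614 replicate 1, had 23.7% at 40 to 100 kb and 5.02% beyond 2000 kb.

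The map of single bin pairs, on a log2 scale of corrected signal, gave no call. Of 16934 bin pairs tested, 0% passed at an adjusted p of 0.05 by limma and none by edgeR on raw counts. With p unadjusted, limma had 882 bin pairs under 0.05 (2.78% lower and 2.43% higher in Del_576-614) and edgeR 814. The median difference over all bin pairs was 0.013.

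**Figure D4:**
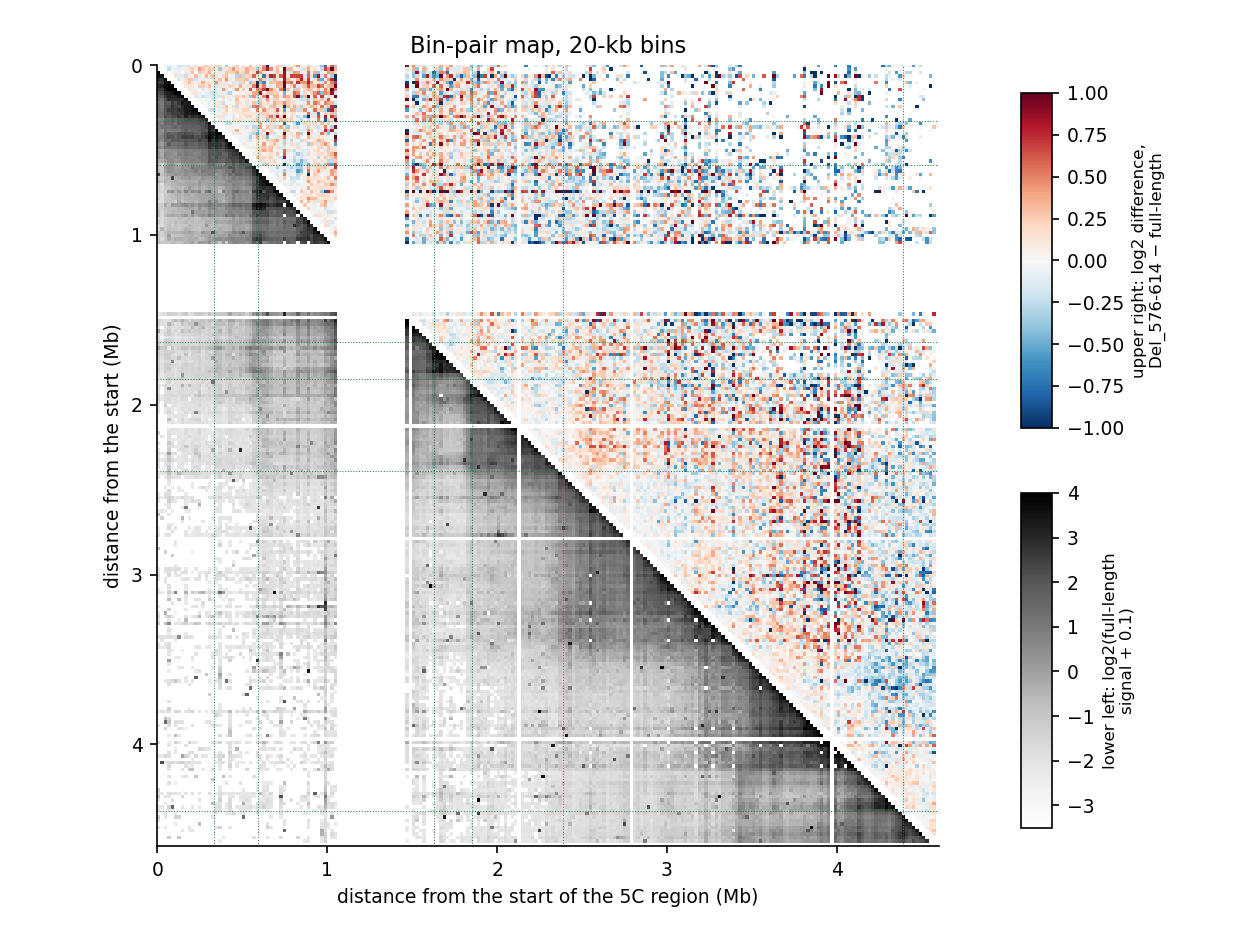
Map of the 5C region in 20-kb bins (both axes in Mb from its start): the upper right triangle shows the log2 difference in corrected signal between Del_576-614 and full-length means, with the scale ending at -1 and 1, and the lower left triangle the full-length log2 signal, with boundaries dotted and unmeasured bins white. Red is widespread in the block on both sides of boundary 5 (median 0.12), and blue in the block across boundary 6 (median -0.048).

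Broad blocks of the map moved by small amounts. Between the segments on either side of boundary 5, the median difference was 0.12 and 24.7% of 887 bin pairs were lower in Del_576-614. Around boundary 1 the median was 0.098 over 192 bin pairs, and around boundary 6 it was -0.048. For all bin pairs the share that was lower was 47.8%. With distance the median went from 0.027 at 40 to 100 kb to -0.091 beyond 2000 kb, and with the number of boundaries crossed from 0.014 for none to -0.10 for 4 or more. Bin pairs share libraries and neighbours, so these medians carry no test.

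All 3 Del_576-614 libraries were below all 14 full-length libraries in 0.177% of bin pairs and above all in 0.171%. The 5 bin pairs with the smallest p were all of this kind, and 4 of them are given here. The smallest p belonged to the contact between chrX:100391148-100411148 in 4930519F16Rik and chrX:102071148-102091148, 1680 kb apart. Its scaled signal was 0.352, 0.325 and 0.149, against 0.590 to 1.63 with a median of 0.823 in full-length cells (log2 difference -1.46, SE 0.27, limma adjusted p = 0.574).

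The other three had limma adjusted p-values of 0.831. Between chrX:99651148-99671148 in Hdac8, a histone deacetylase gene, and chrX:101431148-101451148 the signal was higher (log2 difference 1.78). It was lower between chrX:102391148-102411148 and chrX:103051148-103071148 in Atrx (log2 difference -0.63) and between chrX:101911148-101931148 and chrX:103331148-103351148 in Tlr13, a Toll-like receptor gene (log2 difference -1.0). None of these bins holds a FLAG–CTCF peak.

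Among 945 bin pairs with a peak at both ends, all 3 libraries were below the full-length range in 1 and above it in 1, a smaller share in either direction than over all bin pairs. The lower one, singled out after seeing the values, joined chrX:102951148-102971148, in Fgf16, and chrX:103111148-103131148, in Atrx, 160 kb apart. Its scaled signal was 0.982, 0.994 and 0.931 in Del_576-614 and 1.33 to 5.23, with a median of 2.44, in full-length cells (log2 difference -1.29, SE 0.30, limma adjusted p = 0.831).

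Contacts of 1 peak bin with another, 100 to 1000 kb apart, were summarised over 344 bin pairs as the mean of log2 observed over expected, leaving out values of 0. They were 0.153, 0.121 and 0.191 in Del_576-614. In full-length cells they were 0.044 to 0.152 with a median of 0.099. The lowest full-length values, 0.044 and 0.070, came from the later libraries labelled replicate 3 and replicate 4. Del_576-614 replicates 1 and 3 were above the full-length range, replicate 1 by a small margin. The difference of 0.050 (0.155 ± 0.035, n = 3, against 0.105 ± 0.029, n = 14, SD) passed the exact permutation test (p = 0.0294). It was 0.056 within the first run of library numbers and 0.018 within the second.

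The call held with 15 of 17 libraries left out in turn but with only 2 of 9 other settings. Taken as log2 of the mean, which keeps values of 0 and also changes how pairs are averaged, the difference was 0.019 (exact permutation p = 0.456). With median binning it was 0.020 (exact permutation p = 0.388) and with peaks counted also in the neighbouring bin 0.017 (p = 0.488). Without Del_576-614 replicate 3 it was 0.032 (exact permutation p = 0.167) and without replicate 1 it was 0.051 (p = 0.0833). The 2 libraries with auxin alone, in which no CTCF cDNA was induced, had 0.159 and 0.168. The low-expression full-length line had 0.166 and 0.141, and the line with K74R and Del_576-614 had 0.127 and 0.095. The single libraries of Del_615-736 and Del_577-736 had 0.144 and 0.162. Values near those of Del_576-614 thus also occurred in other lines.

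Motif direction divided those pairs in which each bin had matches on 1 strand only. This description was added after seeing the data and was not tested. Bins with matches on both strands (4) or on neither (10) were left out, so the 4 arrangements cover only part of the 344 pairs. The measure was log2 of the mean with values of 0 kept, and over all 344 pairs it differed by 0.019. For 47 pairs with convergent matches (plus strand at the lower coordinate, minus strand at the higher), the value was 0.586, 0.641 and 0.752 in Del_576-614. Full-length libraries had 0.546 to 0.987 with a median of 0.778. All 3 libraries were under the full-length median and inside its range (difference -0.124).

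The other arrangements differed upwards. Pairs with both matches on the plus strand (48) had 0.393, 0.604 and 0.598 against 0.322 to 0.594. Pairs with both on the minus strand (37) had 0.243, 0.271 and 0.391 against 0.150 to 0.338. Divergent pairs (40) had 0.184, 0.101 and 0.342 against -0.078 to 0.270. The differences of the means were 0.076, 0.063 and 0.11, and 1 or 2 libraries were above the full-length range in each. The order of the 4 arrangements, with convergent pairs highest and divergent pairs lowest, held for the means of both lines.

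**Figure D5:**
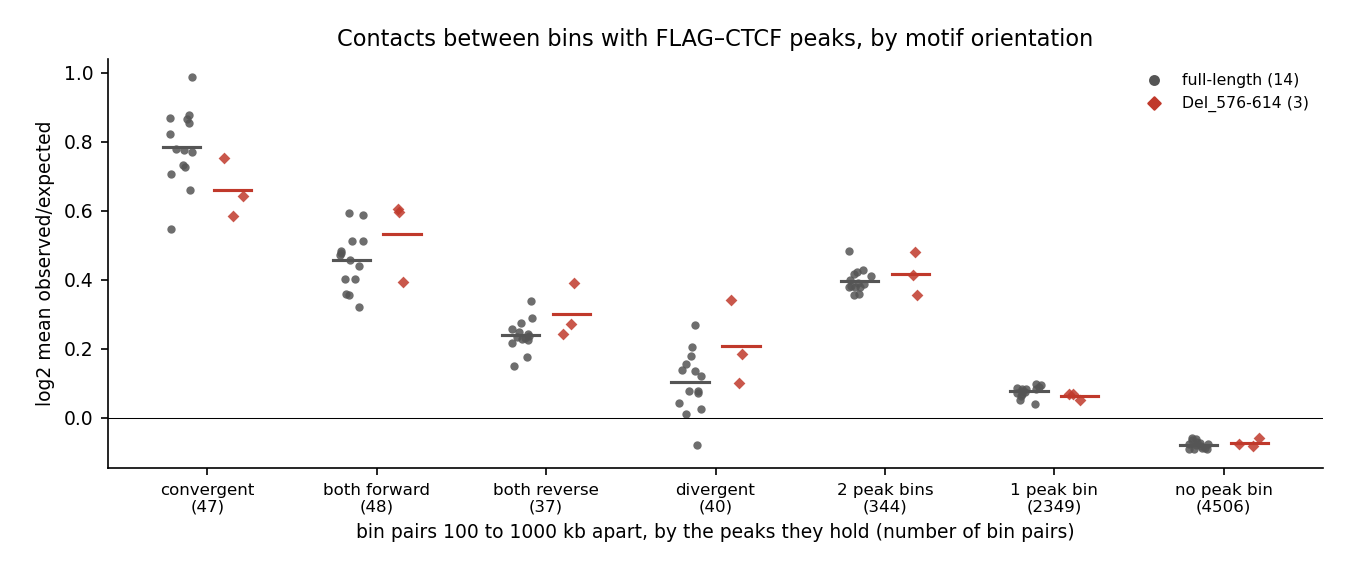
Log2 of mean observed over expected contact for bin pairs with a FLAG–CTCF peak at both ends, by the direction of their CTCF core matches, and for all pairs with 2, 1 or 0 peak bins, for full-length CTCF (n = 14) and Del_576-614 (n = 3), where points are libraries and horizontal lines means. Convergent pairs are highest in both lines, with means of 0.784 and 0.660, and of the 4 arrangements divergent pairs are lowest, with 0.102 and 0.209.

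Full-length cells with auxin alone (2 libraries) and related lines with auxin and dox placed Del_576-614 on a scale. With auxin alone the full-length line had a mean insulation of 0.373 and 0.384, and the full-length line with low expression had 0.502 and 0.514. Taking the auxin-alone mean as 0% and the full-length mean as 100%, Del_576-614 stood at 70.0%, or at 87.7% without replicate 1. The position varied by boundary, with 17.5% at boundary 2, 63.0% at boundary 4 and 66.2% at boundary 6. It was 79.5% at boundary 1, 84.3% at boundary 5 and 90.6% at boundary 3. Without replicate 1 these 6 positions were, in the same order, 29%, 125.4%, 84.4%, 78.5%, 87.7% and 110.6%. The span from 0% to 100% was 0.159 at boundary 4 and 0.090 at boundary 1, where the full-length SD was 0.139 and 0.054. At the other boundaries it was 0.195 to 0.352. With 2 auxin-alone libraries, differences in position between boundaries were not tested.

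Against the low-expression full-length line, mean insulation in Del_576-614 was higher by 0.030, with 1 of 3 libraries below and 2 above both of its libraries (exact permutation p = 0.6). Against the sumoylation-deficient line, whose labels name K74R together with Del_576-614 and whose libraries scored 0.589 and 0.581, it was lower by 0.046 (exact permutation p = 0.6). With 3 and 2 libraries the smallest possible p is 0.2, so neither comparison could pass. In the limma fit over 193 bins, no bin passed in either comparison, with 12 and 6 bins at an unadjusted p under 0.05. Against full-length CTCF, the same fit had 42 such bins for the low-expression line, 21 for the sumoylation-deficient line and 34 for Del_576-614. Of these, 0, 2 and 3 passed. The low-expression line was lower by more than Del_576-614 at boundaries 3 to 6, for example -0.121 against -0.055 at boundary 5. At boundary 2 it was lower by less (-0.114 against -0.161). The interval of the difference from the low-expression line was -0.184 to 0.091 at boundary 2 and -0.027 to 0.159 at boundary 5.

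The other C-terminal deletions had 1 library each and no test. Del_615-736, the deletion that the label of Del_576-614 replicate 1 names, had a mean insulation of 0.555 and scored 0.589 at boundary 2, 0.386 at boundary 3 and 1.11 at boundary 4. Del_577-736, which the study describes as poorly expressed, had 0.358, with 0.314 at boundary 2. The Del_576-614 libraries, at 0.454 to 0.559 at boundary 2, were between these 2 deletions there.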

How the data were processed

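5C libraries of the 3 Del_576-614 and 14 full-length samples were grouped by line, then by treatment. The authors mapped reads to primer pairs (mm9; Bowtie2 per the submitters' processing notes, version not given in the sources used here) and deposited a count per primer pair. The corrected signal deposited beside it comes from the authors' iterative correction, scaled to a sum of 1000000; 2 full-length libraries have a forward-by-reverse layout instead. Correction removes differences in primer efficiency, and scaling makes values relative. FLAG–CTCF peaks were deposited as coordinates, from the overlap of 2 libraries.

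Here, corrected signal was averaged over primer pairs in 20-kb bins. Insulation was scored in 100-kb squares with at least 50% of bin pairs measured. Single values were compared by two-sided exact permutation tests (SciPy 1.17.1), profile and map by limma 3.58.1 with Benjamini-Hochberg adjustment over all bins or bin pairs, at a threshold of 0.05. Map signal was scaled to a mean of 1 per library and tested as log2(signal + 0.1), which understates changes of low pairs, for pairs with a mean of at least 0.1. edgeR 4.0.16 on raw counts was an alternative for the 12 full-length and 3 Del_576-614 libraries with complete counts. Scripts were tested on simulated data. Counting error was not modelled beyond edgeR. Genes came from GENCODE on NCBIM37 (mm9).

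Boundaries, segments, measures and lists were chosen with earlier results of these data known. All boundaries, segments and distance classes are reported, with the 5 bins and 5 bin pairs of smallest p where none was called. Of these bin pairs, 1 is not reported here. Same-numbered libraries were not pairs: the correlation of their deviations from the group mean profile was 0.494 for number 1, -0.276 for number 2 and -0.307 and -0.093 for number 3.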

Additional observations from a re-analysis of the deposited data

How the results depend on the processing

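Of 807 values under other settings, 724 kept their direction and side of the threshold, and 52 turned sign. Those that turned were single boundaries, segments and distance classes, and the cause was not tested. The mean insulation difference was negative in every setting run and passed the exact permutation test over the 4 boundaries with the highest full-length score (-0.091) and from raw counts (-0.0954). Leaving out 1 library at a time gave -0.0962 to -0.0281, nearest to 0 without Del_576-614 replicate 1 and past the threshold without Del_576-614 replicate 2 (-0.0962) or full-length replicate 1 (-0.0737). The number of single boundaries called was 0, but 1 for the bin directly upstream, 1 with median binning, 2 from raw counts and 0 to 1 with 1 library left out (1 without full-length replicate 1 or 8).

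The difference in contacts between peak bins stayed positive but missed the threshold with median binning (0.0201), at 200 to 600 kb (0.0449) and with neighbouring bins counted (0.0175). It also missed the threshold as log2 of the mean with values of 0 kept (0.0193). It was 0.032 to 0.067 with 1 library left out and missed the threshold without Del_576-614 replicate 1 or 3. Called bins of the profile numbered 3 in 1 fit with the related lines and 0 to 3 with 1 library left out (2 without Del_576-614 replicate 1, 3 without full-length replicate 8 and 3 without full-length replicate 13). The map gave 1 call without the filter on low values.

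The replicate number as a block, although the numbers do not pair the libraries, gave -0.0493 for mean insulation (exact permutation p = 0.333, smallest possible 0.167), 0.067 for peak bins and 1 call in the map, and turned boundary 4 (0.0828), segments 3 (-0.0467), 6 (0.0039) and 7 (-0.0519), contacts across boundary 3 (0.0298) and contacts at 500 to 1000 kb (-0.356 points). Of the 3 Del_576-614 libraries, only replicate 1 correlated best with its own number. With the run of library numbers as a block, mean insulation differed by -0.064 (exact permutation p = 0.2, smallest possible 0.1) and peak bins by 0.029, the map gave 2 calls, and segment 3 (-0.0123), contacts across boundary 4 (0.00011) and those at 100 to 250 kb (-0.38 points) and 1000 to 2000 kb (0.204 points) turned. In the later run alone, chosen after seeing the data, peak bins differed by 0.0179, and boundary 3 (0.0276), contacts across boundary 4 (0.0273) and the same distance classes (-0.284 and 0.112 points) turned.

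Other values that turned were boundary 3 with a 200-kb window (0.0088) and boundary 1 for the upstream bin (0.0055). Median binning turned boundary 3 (0.0047), segment 3 (-0.0019) and contacts at 40 to 100 kb (-0.166 points), 100 to 250 kb (-0.295 points) and 1000 to 2000 kb (0.315 points). Raw counts turned boundary 1 (0.0558), segment 4 (0.0298), contacts across boundaries 3 (0.0226) and 4 (0.0071) and those at 500 to 1000 kb (-0.118 points). Segment 6 as a percent of all contacts was 0.35, and contacts across boundary 4 up to 500 kb 0.0166. Without the forward-by-reverse libraries, segment 3 was -0.0011 and contacts at 500 to 1000 kb -0.0131 points. With 1 library left out, the range was -0.0888 to 0.0333 at boundary 3, -0.12 to 0.0403 at boundary 4, -0.0098 to 0.0098 for segment 3, -0.0128 to 0.0703 for segment 7 and -0.0639 to 0.0263 across boundary 4. In points of all contacts it was -0.0024 to 1.32 at 40 to 100 kb, -0.141 to 0.522 at 100 to 250 kb, -0.307 to 0.222 at 500 to 1000 kb and -0.70 to 0.0359 at 1000 to 2000 kb.

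With 3 libraries of 1 clone against 14 of another, differences of the size of the spread between libraries were not detectable, and a miss of the threshold does not show that the lines act alike.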
